A study of Mus musculus with 8 samples.

Results

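Input is the RNA of the starting lysate that was sequenced without immunoprecipitation, and it shows which tissue and which cells an RNA immunoprecipitation (RIP) experiment began from. The 2 Input libraries were taken by their sample labels, out of 8 libraries in the series. The other libraries were 3 immunoprecipitates of CaMKIIβ, a subunit of a calcium-dependent kinase of synapses, and 3 immunoprecipitates with control IgG. They are not described here. All libraries came from C57BL/6 mice, were labelled as hippocampus, and held total RNA extracted with TRIzol and treated with DNase. The labels name no transgene, drug or other treatment, give no age, sex or number of animals, and do not say whether the 2 Input libraries came from separate animals, so that the spread between them may be technical.

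The hippocampus is a part of the telencephalon in which granule cells of the dentate gyrus and pyramidal cells of fields CA1, CA2 and CA3 are the main excitatory neurons. The cerebellum is a hindbrain structure whose granule cells, the most numerous neurons of the mammalian brain, excite Purkinje cells, its inhibitory output neurons, while Bergmann glia ensheath the Purkinje cell synapses. These cell types carry sets of transcripts that are well known from in situ maps, and such sets were used to describe the Input RNA. The values give the tissue content of a lysate and not the binding of any protein.

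Transcripts of cerebellar granule and Purkinje cells were far more abundant in both Input libraries than transcripts of hippocampal neurons, although the tissue was labelled hippocampus. Because the leading regional transcripts went against the label, the material is called Input RNA here and not hippocampal RNA. Levels are given as TPM, that is, counts divided by the exon length of the gene and scaled to the same sum in each library, so that genes of different length can be compared. The 20 genes of the cerebellar granule cell list had a median of 200 TPM in replicate 1 and 182 TPM in replicate 2, and the 14 genes of the dentate gyrus granule cell list 19.04 and 19.6 TPM. The ratio of these medians was 9.89, with 10.5 in replicate 1 and 9.31 in replicate 2. Over all 20992 named protein-coding genes the medians were 9.87 and 9.62 TPM. In bulk RNA, fewer cells of a type and less RNA per cell cannot be told apart, so these are levels of transcripts and not numbers of cells.

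The libraries held 17776157 and 21359418 counts in replicates 1 and 2, over 55401 annotated genes, of which 30899 and 31152 had at least 1 count. CPM are counts scaled to a library of 1000000, on which scale a count was worth 0.0563 CPM in replicate 1 and 0.0468 CPM in replicate 2, and a gene at 0 counts may lie at up to 0.169 and 0.140 CPM, the level of 3 counts. Such limits, and the exact 95% Poisson intervals used further on, cover counting error only. Protein-coding genes took 92.6% and 92.1% of counts, long noncoding RNA genes 3.41% and 3.57%, small nuclear RNA genes 0.438% and 0.489%, and the mitochondrial chromosome 1.92% and 2.08%. Genes that could not be given a symbol took 2.95% and 2.92%. Counts were spread over many genes, with 6.01% and 6.36% in the 10 most abundant genes, 15.6% and 15.7% in the 100 most abundant, and 50% of the counts in the top 1224 and 1237 genes.

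The most abundant RNA by counts was Malat1 (ENSMUSG00000092341.3), a long noncoding RNA of nuclear speckles, at 22939.7 and 24441 CPM. It was followed by mt-Co1, which encodes a subunit of cytochrome c oxidase, at 10035 ± 881 CPM, by the large mitochondrial ribosomal RNA mt-Rnr2 at 3304 and 6373 CPM, and by the small nuclear RNA Rn7sk, a regulator of transcription elongation, at 4516 ± 365 CPM. The fifth was a gene without a symbol, ENSMUSG00000071753.13 on chromosome X from 61116378 to 61203785, at 4252 and 3782 CPM. Its span overlaps the RefSeq genes Cdr1os, Cdr1 and C030023E24Rik. Values after ± are SDs over the 2 libraries. Replicate values of these RNAs lay close together except for mt-Rnr2, which was higher in replicate 2.

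Of the 20 genes with the highest mean CPM, 16 were protein-coding, and they belonged to neurons and to myelinating and astrocytic glia. Mbp, a main protein of myelin, stood at 1916 ± 70.4 CPM. Slc1a2, the main glutamate transporter of astrocytes, stood at 2755 ± 18.98 CPM, and Itpr1, the inositol trisphosphate receptor that is most abundant in Purkinje cells, at 2752 ± 44.1 CPM. Adcy1, a calcium-stimulated adenylyl cyclase of neurons, stood at 2744 ± 22.4 CPM and Fat2, a protocadherin-related adhesion protein of cerebellar granule cells, at 1696 ± 77.2 CPM. Syne1, Ank2, Sptan1, Snap25, Map1b, Scd2 and Kif1b lay between 1539 and 3602 CPM, and their products scaffold membranes and axons, fuse vesicles, make lipids or move cargo. CPM is not scaled to length, and several of these genes are long.

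Scaled to length, Rn7sk led with 58461 ± 3464 TPM. The 18 named genes among the 20 highest by TPM included 9 of the mitochondrial chromosome, from 2121 ± 195 TPM for mt-Nd4 to 27882 ± 3047 TPM for mt-Co1. The nuclear protein-coding genes among them included Ttr, the transthyretin of the choroid plexus, at 2593 ± 124 TPM, Actb at 1709.8 ± 53.8 TPM, the astrocytic matrix protein Sparcl1 at 1578 ± 18.7 TPM, and the calmodulin genes Calm2 and Calm3 at 1780.3 ± 26.8 TPM and 1598 ± 174 TPM. The second highest was ENSMUSG00000076258.1, a gene of 57 bases inside the span of Zc3h7a, at 23838 and 35879 TPM. It ranked 311 by CPM, and a level per length on so few bases rests on little sequence. ENSMUSG00000118642.1, which overlaps the RefSeq genes Rn18s-rs5 and AY036118, stood at 2243 and 2608 TPM.

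The cerebellar granule cell list was the highest of 15 brain region lists. Of its 20 members 19 reached 1 TPM, 18 reached 10 TPM and 12 reached 100 TPM in the mean of both libraries. Of all named protein-coding genes, 68.7%, 49.8% and 7.69% did so, shares that belong beside the member counts of every list. Gabra6 (ENSMUSG00000020428.13, chromosome 11, 42306437 to 42321072, minus strand) encodes the GABA-A receptor subunit that marks mature granule cells and had 794 TPM in replicate 1 and 774 TPM in replicate 2 (mean 784 ± 14.4, SD, n = 2). Cbln3, a secreted partner of Cbln1 made by granule cells, had 755 TPM in replicate 1 and 731 TPM in replicate 2 (mean 743 ± 16.8, SD, n = 2). Cbln1, which joins granule cell axons to Purkinje cell synapses, had 683 TPM in replicate 1 and 596 TPM in replicate 2 (mean 639.6 ± 61.3, SD, n = 2). The replicates differed by little beside the distance of these genes from the middle of all genes.

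Other members of the list ranged widely. Fat2 had 525 and 477 TPM, the transcription factor Zic1 470.4 and 492 TPM, the vesicular glutamate transporter Slc17a7, which forebrain neurons use as well, 486 and 446 TPM, the transcription factor Neurod1 410.4 and 368 TPM and the small GTPase Diras2 394 and 379.9 TPM. Barhl1, Ntf3, Tlx3, Zic4, Svep1, Uncx and Crtam were lower, from 9.62 to 45.4 TPM in the mean. The lowest member was Atoh1, a transcription factor of dividing granule cell precursors in the young cerebellum, with 0 counts in replicate 1 and 1 count in replicate 2. The precursor gene was thus at the limit of these libraries.

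The Purkinje cell list had medians of 133 and 131 TPM. All 24 members reached 1 TPM and 15 reached 100 TPM. Pcp2 had 91.7 TPM in replicate 1 and 79.8 TPM in replicate 2 (mean 85.7 ± 8.37, SD, n = 2). It is a modulator of G protein signalling restricted to Purkinje cells in the cerebellum and bipolar cells in the retina. The list of retina genes had medians of 0.934 and 0.419 TPM, and bipolar cells as a source of Pcp2 were not tested. Car8, a carbonic anhydrase-related protein that binds the inositol trisphosphate receptor, had 976 TPM in replicate 1 and 904 TPM in replicate 2 (mean 940.0 ± 50.6, SD, n = 2). Calb1, the calcium buffer calbindin, had 472 TPM in replicate 1 and 454 TPM in replicate 2 (mean 463 ± 12.3, SD, n = 2), and Itpr1 had 647 TPM in replicate 1 and 642 TPM in replicate 2 (mean 644 ± 3.5998, SD, n = 2). Aldoc, the zebrin antigen of Purkinje cell stripes that astrocytes make too, and Pvalb, which cerebellar and forebrain interneurons make too, were the highest members at 1092 ± 64.8 TPM and 1069 ± 76.2 TPM.

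A further list held markers of molecular layer interneurons, Golgi cells and unipolar brush cells, with medians of 26.0 and 24.5 TPM. The transcription factor Tfap2b stood at 32.3 and 29.5 TPM and its relative Tfap2a at 9.34 and 8.03 TPM. The secreted protein Lgi2, the receptor tyrosine kinase Kit of molecular layer interneurons and the nicotinic receptor modulator Lypd6 were between 26.8 and 88.2 TPM in the mean. Ptf1a, which specifies GABAergic precursors in the embryonic cerebellum, had 0 counts in both libraries. Bergmann glia genes were also present, with medians of 72.0 and 76.4 TPM, and all 10 reached 10 TPM. Gdf10, a secreted growth factor, had 67.2 and 63.7 TPM, Septin4 202 and 196 TPM, Pla2g7 189.9 and 209.5 TPM and the fatty acid binding protein Fabp7 140.1 and 159 TPM. Hopx, a homeodomain protein, was the member on which the libraries parted, with 59.5 and 111 TPM.

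**Figure D1:**
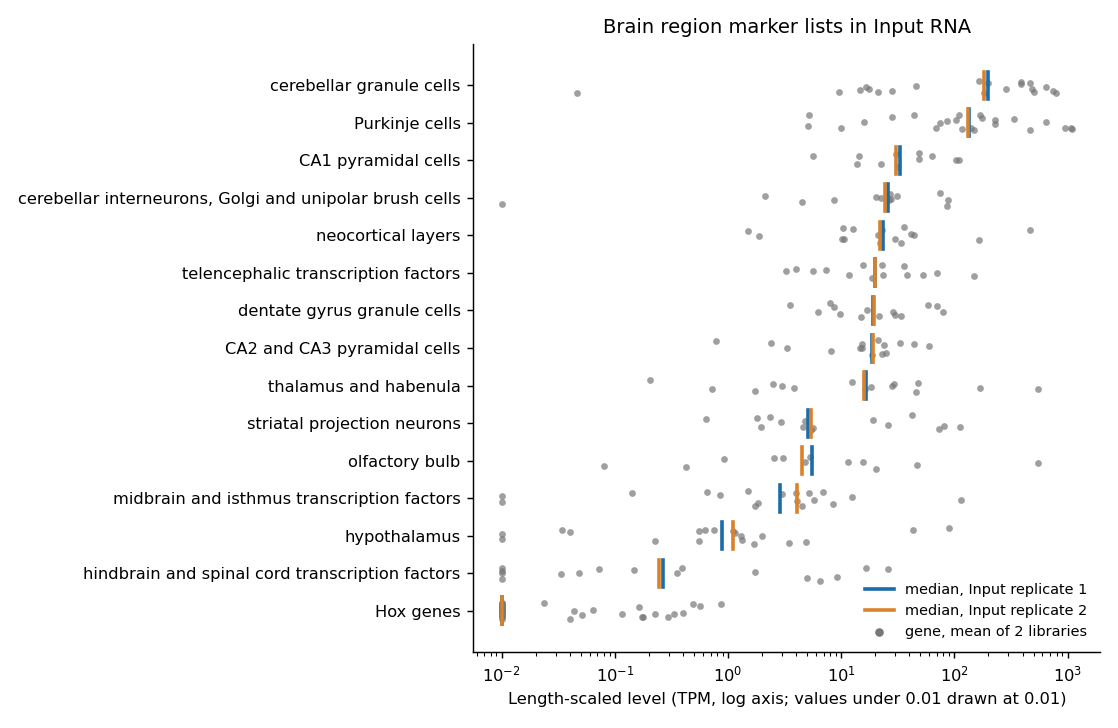
Length-scaled level (TPM, log axis) of the genes of 15 brain region lists in the Input RNA, where each grey point is the mean of a gene over 2 libraries and coloured bars are the list medians of replicates 1 and 2, with values under 0.01 drawn at 0.01. The medians of cerebellar granule cells (200 and 182 TPM) and Purkinje cells (133 and 131 TPM) lie to the right of every forebrain list, and the Hox genes lie at 0.

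Hippocampal transcripts were present at lower levels. All 14 members of the dentate gyrus granule cell list reached 1 TPM, 9 reached 10 TPM and 0 reached 100 TPM. The shares of all named protein-coding genes were 68.7%, 49.8% and 7.69%. Prox1 (ENSMUSG00000010175.13, chromosome 1), the transcription factor that sets dentate granule cell identity, had 74.7 TPM in replicate 1 and 64.5 TPM in replicate 2 (mean 69.6 ± 7.18, SD, n = 2). C1ql2 and C1ql3, synaptic proteins secreted by dentate mossy fibres, had 16.5 and 17.3 TPM and 21.5 and 21.8 TPM. The highest members were Bhlhe22 with 81.1 and 78.2 TPM, Prox1, Rfx3 with 59.1 and 58.4 TPM and Stxbp6 with 32.7 and 35.4 TPM. The highest dentate gene lay below 12 of the 20 cerebellar granule cell genes in the mean.

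The CA1 list had medians of 32.8 and 30.7 TPM, and 10 of its 11 members reached 10 TPM, beside 49.8% of named protein-coding genes. Fibcd1 (ENSMUSG00000026841.7, chromosome 2), a receptor that in the hippocampus marks dorsal CA1, had 30.9 TPM in replicate 1 and 30.6 TPM in replicate 2 (mean 30.8 ± 0.245, SD, n = 2). Wfs1, a protein of the endoplasmic reticulum, and Mpped1, a metallophosphoesterase, had 65.3 and 62.1 TPM and 51.7 and 45.6 TPM. The highest were the transcription factor Zbtb20, which astrocytes express as well, at 109.7 ± 3.42 TPM and the heparan sulfate enzyme Ndst3 at 103 ± 4.81 TPM. The CA2 and CA3 list had medians of 18.7 and 18.9 TPM. Amigo2, an adhesion protein of CA2 neurons, had 20.99 and 21.4 TPM, Rgs14, a signalling regulator of CA2, 15.02 and 15.3 TPM and Map3k15 2.42 and 2.36 TPM. Fam163b, Cacng5, Elavl2 and Cpne4 were its highest members, from 24.9 to 59.3 TPM in the mean.

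Transcription factors that pattern the telencephalon formed a separate list, since the cerebellum does not arise there. Its medians were 19.9 and 19.8 TPM, and the cerebellar granule cell median was 9.63 times as high in the mean. Emx1 and Emx2, homeodomain proteins of cortex and hippocampus, had 3.48 and 2.99 TPM and 7.26 and 7.31 TPM. Neurod2 had 147 and 149 TPM and is expressed by cerebellar granule cells too, whereas Neurod6, a factor of forebrain pyramidal neurons, had 69.5 and 69.9 TPM. All 14 factors reached 1 TPM in the mean, and 10 reached 10 TPM, beside 68.7% and 49.8% of named protein-coding genes.

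**Figure D2:**
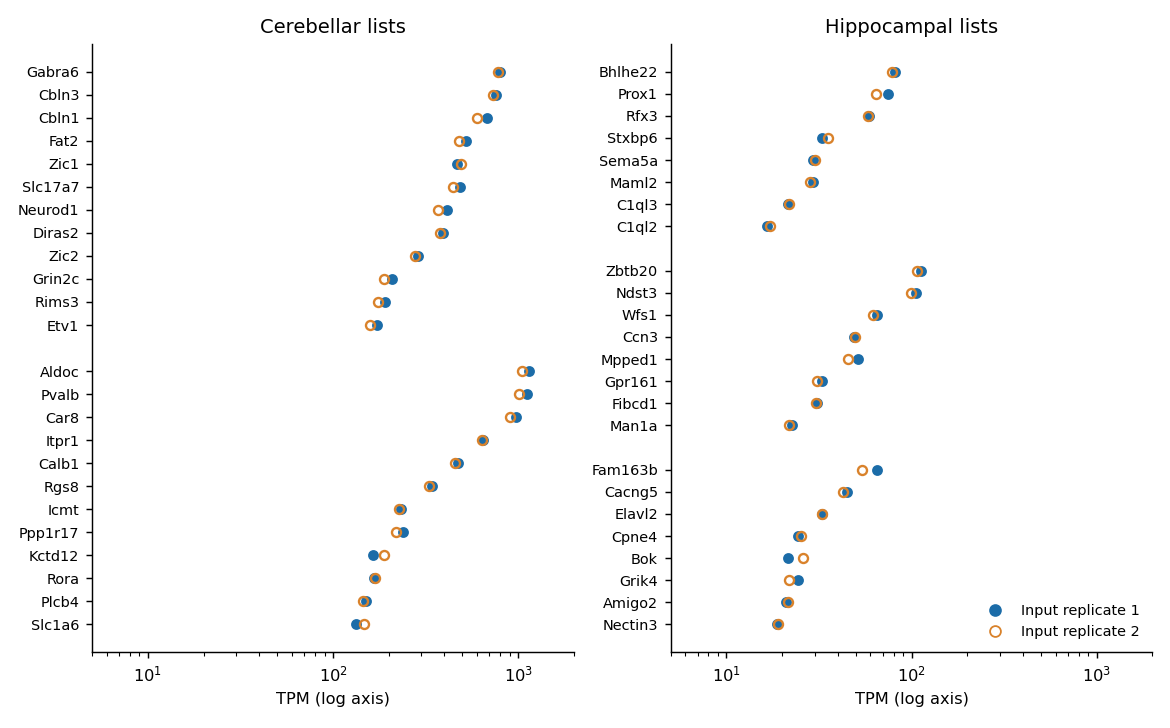
TPM (log axis) in Input replicates 1 (filled) and 2 (open) for the 12 highest members of the granule cell and Purkinje cell lists on the left, top and bottom, and for the 8 highest members of the dentate gyrus, CA1, and CA2 and CA3 lists on the right, from top to bottom. The cerebellar genes shown lie above 100 TPM in both libraries, and of the hippocampal genes shown only Zbtb20 and Ndst3 reach 100 TPM in the mean.

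The remaining forebrain and brainstem lists were lower than the cerebellar granule and Purkinje cell lists. The neocortical list had medians of 23.5 and 21.9 TPM, with Cux1, Cux2 and Rorb, transcription factors of the upper and middle layers, at 43.8 ± 1.78 TPM, 33.5 ± 1.797 TPM and 21.1 ± 1.85 TPM. Its 2 members over 100 TPM, Calb1 and Etv1, stood on the cerebellar lists as well. The thalamus and habenula list had medians of 16.7 and 15.9 TPM, and its highest members, Calb2 at 548 ± 15.3 TPM and Rora at 167 ± 1.34 TPM, are abundant in cerebellar neurons. Tcf7l2, a transcription factor of thalamic neurons, had 17.8 and 18.7 TPM and the kinase Prkcd 49.4 and 45.8 TPM.

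Striatal and olfactory bulb medians overlapped between the libraries, at 5.10 and 5.35 TPM for the striatum and 5.55 and 4.53 TPM for the olfactory bulb. The dopamine receptors Drd1 and Drd2 had 2.23 and 2.51 TPM and 5.097 and 4.42 TPM, and Adora2a, the adenosine receptor of striatal neurons, 1.36 and 2.26 TPM. Penk, which encodes enkephalin precursors, was the highest striatal member at 111 ± 0.873 TPM. Cerebellar Golgi cells express Penk as well. In the olfactory bulb list Doc2g had 3.23 and 2.93 TPM, the mitral cell factor Tbx21 was at 0 and 0.159 TPM, and Calb2 and Lhx1, which have cerebellar expression too, led the list.

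Genes of the hypothalamus were near the limit. The list had medians of 0.885 and 1.10 TPM, and 10 of its 19 named members reached 1 TPM. The hormone genes Oxt, Avp and Pomc had 0 and 1.105 TPM, 0.425 and 0.685 TPM and 2.97 and 3.901 TPM, and the transcription factors Nr5a1 and Rax had 0 counts in both libraries. Hap1 and Npy, which are expressed outside the hypothalamus as well, were its highest members at 89.8 ± 5.74 TPM and 43.2 ± 4.34 TPM. Hormone genes of the pituitary were also low, with 0.568 and 0 TPM for growth hormone and 0 counts for Cga and Fshb.

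Of the factors that pattern midbrain and hindbrain, En2, an engrailed protein of the cerebellum and the midbrain, stood out with 108 and 121 TPM, and its relative En1 had 6.25 and 7.46 TPM. The list they belong to had medians of 2.90 and 4.08 TPM, and Foxa1 and Foxa2, factors of midbrain dopamine neurons, had 0 counts. The hindbrain and spinal cord list had medians of 0.266 and 0.243 TPM, with 0 counts for Tlx1, Mnx1, Hmx2 and Hmx3. Of its 16 members 6 reached 1 TPM and 2 reached 10 TPM, beside 68.7% and 49.8% of named protein-coding genes. Meis1 was the highest at 26.0 TPM in the mean. Phox2a and Lbx1, factors of brainstem and spinal neurons, had means of 0.0486 and 6.46 TPM. Of 37 named Hox genes, which are expressed from the hindbrain to the spinal cord behind the cerebellar anlage, 21 had 0 counts in both libraries and 0 reached 1 TPM. The highest was Hoxa5 with 0.783 and 0.948 TPM. Cerebellar genes were not accompanied by Hox transcripts at 1 TPM or more.

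The order of the region lists was the same in both libraries for the highest lists, since the library medians of granule cells, Purkinje cells, CA1 and cerebellar interneurons did not overlap. Telencephalic factors, dentate gyrus, and CA2 and CA3 lay between 18.7 and 19.9 TPM and changed their order when members found on other lists were left out, at 18.6, 19.3 and 18.8 TPM. With that setting the granule cell and Purkinje cell medians were 199 and 114 TPM. A median of one list against another sets different genes beside each other, so the order describes these lists and not the mass of each region.

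Families of related genes, chosen after the values were seen, are described next (the plot of gene families shows 7 of the 10). Among the GABA-A receptor alpha subunits, Gabra6 had 784 ± 14.4 TPM, and Gabra2 and Gabra5, prominent in the hippocampus, had 60.02 ± 2.31 TPM and 59.004 ± 11.1 TPM. Gabra2 and Gabra5 did not differ beyond their spread. Among the NMDA receptor GluN2 subunits, Grin2c, the subunit of mature granule cells, had 199 ± 12.8 TPM, Grin2b 123 ± 8.801 TPM and Grin2a 116 ± 2.16 TPM, and the last pair overlapped between the libraries. Cbln3 and Cbln1 had over 600 TPM in the mean, and Cbln2 and Cbln4, which forebrain neurons express, 17.7 ± 0.593 TPM and 7.54 ± 0.995 TPM.

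Of the transcription factor families, Neurod1 stood at 389 ± 29.9 TPM, Neurod2 at 148 ± 1.44 TPM, Neurod6 at 69.7 ± 0.279 TPM and Neurod4 at 0.265 ± 0.0399 TPM. Zic1 and Zic2 stood at 481 ± 15.2 TPM and 283 ± 5.94 TPM, and Zic4 and Zic5 at 17.6 ± 0.313 TPM and 48.3 ± 0.827 TPM. Zic1 and Zic4 overlap on opposite strands, and because the strand setting of the counting is not given in the sources used here, their reads cannot be told apart where they overlap. Slc17a7 exceeded Slc17a6, the vesicular glutamate transporter of thalamus and brainstem, at 45.7 ± 0.768 TPM, and Slc17a8 at 2.18 ± 0.296 TPM. Of the glutamate uptake transporters, astrocytic Slc1a2 and Slc1a3 had 899.8 ± 25.6 TPM and 429 ± 24.97 TPM, and Slc1a6, the transporter of Purkinje cells, had 139.7 ± 10.1 TPM against 31.6 ± 2.66 TPM for neuronal Slc1a1. Other families were not led by cerebellar genes alone. The C1q-like proteins were led by C1ql3 and C1ql2 of the dentate gyrus, at 21.7 ± 0.206 TPM and 16.9 ± 0.542 TPM, above C1ql1, which inferior olive neurons secrete onto Purkinje cells, at 8.55 ± 0.135 TPM. Of the aldolases, Aldoc at 1092 ± 64.8 TPM and the widely expressed Aldoa at 1023 ± 65.6 TPM overlapped between the libraries. The calcium buffers Pvalb, Calb2 and Calb1, which both cerebellar and forebrain neurons use, had 1069 ± 76.2 TPM, 548 ± 15.3 TPM and 463 ± 12.3 TPM.

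**Figure D3:**
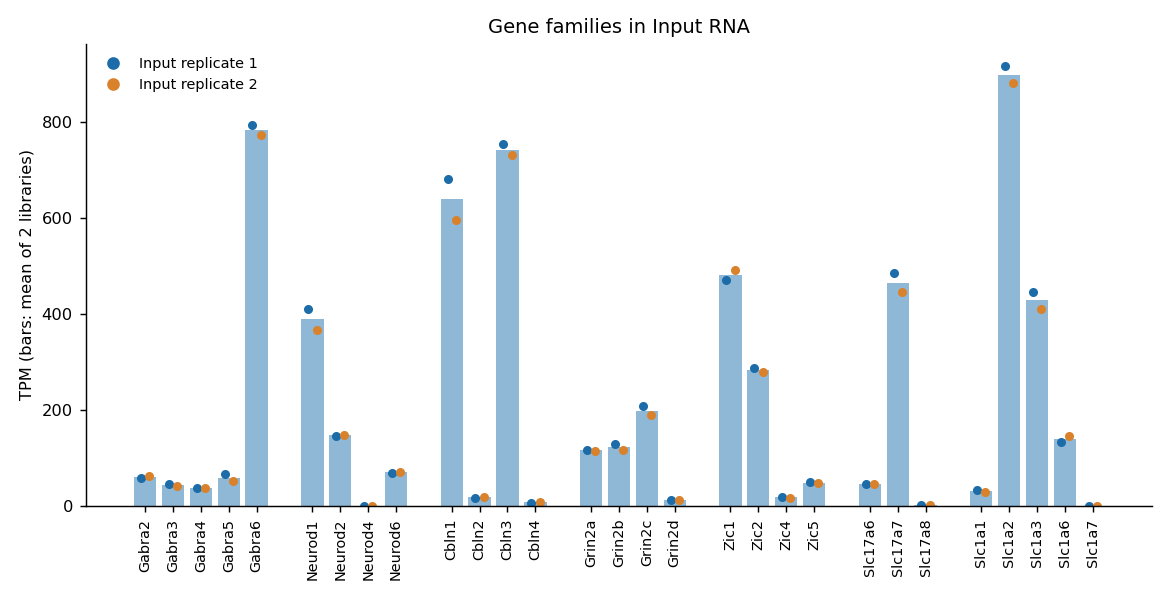
TPM (linear axis from 0) of members of 7 gene families in the Input RNA, with bars for the mean of 2 libraries and points for replicates 1 and 2. Gabra6, Neurod1, Cbln1 and Cbln3, Grin2c, Zic1 and Slc17a7 are the highest of the family members shown, as is the astrocytic Slc1a2. The C1q-like proteins, aldolases and calcium buffers, which were not led by cerebellar genes alone, are not shown.

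Across cell types, neurons, oligodendrocytes and astrocytes gave the highest lists. The 14 pan-neuronal genes had medians of 289 and 274 TPM and all reached 10 TPM, with Snap25, a vesicle fusion protein, at 1073 and 1000.1 TPM, Syt1, the calcium sensor of release, at 336 and 337 TPM and the nuclear marker Rbfox3 at 239 and 219 TPM. Rbfox3 protein is nearly absent from Purkinje cells and marks granule cells strongly. Mature oligodendrocyte genes had medians of 215 and 221 TPM. Mbp had 1010.5 and 930.4 TPM and Mog, a protein of the outer myelin surface, 211 and 239 TPM, and all 14 members reached 10 TPM. Oligodendrocyte progenitor genes were lower, with medians of 11.9 and 12.5 TPM, and Pdgfra, their growth factor receptor, had 21.9 and 21.8 TPM, the proteoglycan Cspg4 8.27 and 8.02 TPM and the receptor Gpr17 of cells about to mature 56.9 and 53.02 TPM.

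Astrocyte genes had medians of 208 and 195 TPM, and 10 of 14 reached 100 TPM. The glutamine-making enzyme Glul had 1167 and 1032 TPM and Slc1a2 918 and 882 TPM. The intermediate filament Gfap, which is strong in hippocampal and white matter astrocytes, had 163 and 148 TPM, and the water channel Aqp4 253 and 242 TPM. Bergmann glia and astrocytes share several of these genes, Slc1a3 among them, so the list does not divide the 2 cell types.

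Glutamatergic neuron genes had medians of 100.03 and 112 TPM and GABAergic neuron genes 71.2 and 62.8 TPM. The GABA-synthesising enzymes Gad1 and Gad2 had 199 and 197 TPM and 144 and 137 TPM, and the vesicular GABA transporter Slc32a1 96.2 and 85.5 TPM. The forebrain interneuron factors Dlx1, Dlx2, Dlx5, Dlx6 and Lhx6 lay between 1.02 and 5.45 TPM in the mean. Of the neuropeptide genes on the list, Cck had 161.8 ± 5.32 TPM, Sst 98.9 ± 11.1 TPM, Npy 43.2 ± 4.34 TPM and Vip 4.698 ± 0.891 TPM. Gad1, Gad2, Slc32a1, Cck, Sst and Npy were above the Dlx genes and Lhx6, and Vip lay within their range. These are different kinds of genes, and the region of the GABAergic cells was not tested. Glycinergic genes had medians of 17.5 and 16.7 TPM, and Slc6a5, the glycine transporter of inhibitory neurons in hindbrain and cerebellar Golgi cells, had 17.5 and 16.7 TPM.

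The lists of monoamine and cholinergic neurons, whose cell bodies lie outside both hippocampus and cerebellar cortex, had medians near 1 or 2 TPM. Monoamine medians were 2.17 and 2.101 TPM, with Th, the enzyme of dopamine and noradrenaline synthesis, at 5.91 and 4.68 TPM and the dopamine transporter Slc6a3 at 0.185 TPM in the mean. Maob was the highest monoamine list member at 24.4 TPM in the mean. Chat, the enzyme of acetylcholine synthesis, had 0.208 and 0.04204 TPM and Slc18a3, the vesicular acetylcholine transporter, 0.102 and 0.328 TPM. Ache, which many neurons express, was the highest cholinergic list member at 49.3 ± 0.123 TPM.

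Immune and vascular cells contributed lower levels. Microglia genes had medians of 20.01 and 19.5 TPM, with the fractalkine receptor Cx3cr1 at 16.8 and 20.5 TPM, the purinergic receptor P2ry12 at 28.96 and 24.1 TPM and Tmem119 at 13.2 and 13.1 TPM. Among their highest members were the lysosomal protease Ctss at 61.5 ± 0.517 TPM and the complement genes C1qa and C1qb at 50.5 ± 0.919 TPM and 49.3 ± 5.45 TPM. Genes of perivascular macrophages and other leukocytes had medians of 1.08 and 0.921 TPM, led by the mannose receptor Mrc1 at 6.21 ± 0.738 TPM, and Ly6g of neutrophils had 0 counts in both libraries. Endothelial genes had medians of 20.4 and 20.2 TPM, with the tight junction protein Cldn5 at 51.4 and 59.9 TPM, the adhesion protein Pecam1 at 13.5 and 12.1 TPM and the receptor Flt1 at 20.4 and 20.2 TPM. Pericyte and smooth muscle genes had medians of 7.71 and 8.16 TPM, and Rgs5 and Vtn of pericytes stood at 102 ± 0.891 TPM and 91.8 ± 6.31 TPM.

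Ventricular and surface tissues were measured too. Ttr had 2505 and 2680.1 TPM, and 12 further choroid plexus genes lay between 3.79 and 27.4 TPM in the mean, the ageing-related hormone co-receptor Kl at 25.03 and 22.8 TPM and the folate receptor Folr1 at 12.4 and 10.8 TPM among them. All 13 choroid plexus genes reached 1 TPM. The choroid plexus lies in the ventricles beside the hippocampus and below the cerebellum alike. Ependymal medians were 4.08 and 3.97 TPM, with the cilium factor Foxj1 at 14.4 and 13.8 TPM. Meningeal and perivascular fibroblast genes had medians of 14.3 and 16.7 TPM, with the matrix proteoglycans Dcn and Lum at 15.5 and 17.002 TPM and 6.004 and 4.604 TPM, and Ptgds, a prostaglandin synthase that oligodendrocytes and meninges share, at 891 and 1026 TPM. Red blood cell RNA was present, led by the beta globin gene Hbb-bs at 1398 and 1329.5 TPM, and by Hba-a1 at 289.9 and 326 TPM. Hba-a1 and Hba-a2, and Hbb-bs and Hbb-bt, are near-identical copies, so the division of reads within each pair is uncertain.

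**Figure D4:**
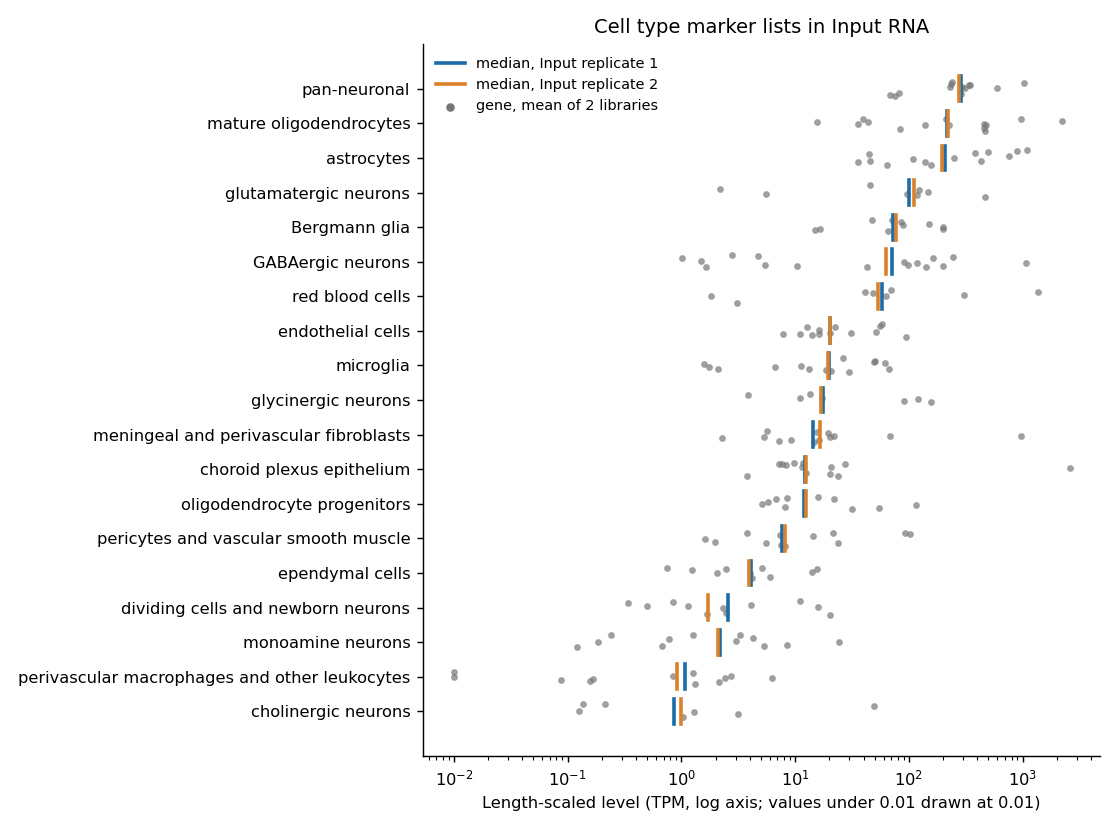
Length-scaled level (TPM, log axis) of the genes of 19 cell type lists in the Input RNA, where each grey point is the mean of a gene over 2 libraries and coloured bars are the list medians of replicates 1 and 2, with values under 0.01 drawn at 0.01. Pan-neuronal, oligodendrocyte and astrocyte lists have medians between 195 and 289 TPM, and the medians of the leukocyte and cholinergic lists lie near 1 TPM.

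Genes of dividing cells and newborn neurons had medians of 2.58 and 1.70 TPM. The proliferation genes Mki67, Top2a and Cdk1 had 2.58 and 2.32 TPM, 1.17 and 1.12 TPM and 0.199 and 0.481 TPM. The highest members, Eomes at 20.5 ± 2.34 TPM, Sox11 at 16.1 ± 0.797 TPM and Dcx at 11.01 ± 0.401 TPM, mark newborn neurons of the forebrain, and Eomes marks cerebellar unipolar brush cells as well. Genes of liver, kidney and skeletal muscle had medians of 0.288 and 0.582 TPM, with Acta1 of muscle and Alb of liver highest at 6.55 ± 0.887 TPM and 6.25 ± 1.67 TPM.

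Both Xist, the RNA of the inactive X chromosome, and Y-linked genes were measured in both libraries. Xist had 33.4 and 32.01 TPM, the RNA helicase gene Ddx3y 16.96 and 21.2 TPM, the translation factor gene Eif2s3y 19.8 and 19.2 TPM, and the histone demethylase genes Kdm5d and Uty 7.01 and 6.13 TPM and 10.7 and 9.37 TPM. The libraries did not divide by sex, since each held all 5 transcripts. Immediate early genes, which neuronal activity and tissue handling induce, had medians of 27.1 and 29.5 TPM. The AP-1 factors Fos and Jun had 32.2 and 32.5 TPM and 81.5 and 77.3 TPM, and Arc, a protein of active synapses, had 66.4 and 48.4 TPM.

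Mitochondrial mRNAs fell into separate level ranges. Of 13, 7 had between 2121 and 27882 TPM, and 6 between 3.26 and 93.4 TPM in the mean. The low group consisted of mt-Co2, mt-Co3, mt-Atp6, mt-Atp8, mt-Nd3 and mt-Nd4l, which lie next to each other on the mitochondrial chromosome from position 7013 to 10173. It had the same members in both libraries, with mt-Co2 at 18.98 and 26.9 TPM and mt-Co3 at 43.4 and 55.7 TPM, while mt-Co1, which lies just before them, had 30037 and 25728 TPM. Copies of this stretch exist in the nuclear genome, and the pseudogene Gm10925 on chromosome 1, which RefSeq lists under the synonym mt-Atp6, held 42 and 59 counts. How reads with several positions were counted is not given in the sources used here, and their part in the low group was not tested.

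Among abundant noncoding RNAs, Snhg11, a neuronal long noncoding RNA, had 738 and 752 TPM, and the imprinted Meg3 and the neuronal Miat 87.1 and 89.5 TPM and 77.998 and 79.02 TPM. Neat1, the scaffold of paraspeckles, was low beside Malat1 at 20.05 and 21.04 TPM. Terc, the RNA of telomerase, had 0 counts. Transcripts of replication-dependent histone genes, which lack a poly(A) tail, were present, with H4c8 at 353 and 479.6 TPM, H4c14 at 267 and 212 TPM and H1f4 at 41.2 and 56.7 TPM. The many near-identical histone genes make the level of a single copy uncertain.

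The 2 Input libraries were alike in nearly all genes. Of 10589 genes with a mean of at least 10 CPM, 50, or 0.472%, differed by 1.5-fold or more in CPM, 42 (0.397%) higher and 8 (0.0756%) lower in replicate 2. The correlation of log2 CPM across these genes, which are not independent replicates, was 0.994. A chi-square of the counts of both libraries had a mean of 5.80 and a median of 1.41 per gene over 15047 genes. Counting noise of independent reads gives 1 and 0.455. The libraries thus differed by more than counting noise, which does not show whether they came from separate animals. With 1 library on each side there is no test, and the ratios describe these 2 libraries.

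The genes higher in replicate 2 were mostly short and included ribosomal protein and respiratory chain genes. Rpl39, a protein of the large ribosomal subunit, had 9.96 and 28.1 CPM, a ratio of 2.83, and Rps29 of the small subunit 13.95 and 36.3 CPM, a ratio of 2.60. Ndufb1 of respiratory complex I had 9.23 and 21.96 CPM and Atp5e of the ATP synthase 16.6 and 35.8 CPM. The mitochondrial ribosomal RNA mt-Rnr1 had 8.89 and 19.5 CPM and mt-Rnr2 3304 and 6373 CPM. Genes classed as ribosomal RNA, mt-Rnr2 among them, took 0.331% and 0.639% of counts. Rn18s-rs5, classed as a pseudogene, had 332 and 570 CPM, a ratio of 1.72. The other genes of largest ratio were Gm25395, a small guide RNA gene, at 2.61, Lars2, a mitochondrial tRNA synthetase, at 2.07 and Tmem256 at 1.998. The exact 95% Poisson intervals of the libraries did not overlap for these genes.

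Of the 42 genes higher in replicate 2, 30 had an exon length of at most 2000 bases, a length that 7.33% of tested genes had. By exon length, the share of genes past 1.5-fold was 13.8% up to 1000 bases, 2.55% from 1000 to 2000, 0.459% from 2000 to 4000, 0.0445% from 4000 to 8000 and 0.121% above. Of the ribosomal protein genes tested, 7 of 72 were higher and 0 lower, and of the nuclear oxidative phosphorylation genes 7 of 70 were higher and 0 lower. Among ribosomal protein genes, 6 of 39 up to 2000 bases and 1 of 33 above were higher. Their median ratios were alike, at 1.15 up to 2000 bases and 1.14 above, beside 0.999 over all genes tested. Exon length moved with the ratio, and its part in these differences was not tested.

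Of the 8 genes lower in replicate 2, 2 had exons of up to 1000 bases in all. Bc1, a short dendritic noncoding RNA, had 16.4 and 10.2 CPM, and Mpc1, a subunit of the mitochondrial pyruvate carrier, 45.9 and 28.7 CPM. BC048403, Nelfe, Chst12, Scube1 and Shroom3 had ratios between 0.584 and 0.665, and Duox1, an oxidase of hydrogen peroxide synthesis, lay just short of 1.5-fold at 0.672. The remaining gene, ENSMUSG00000104562.1, had no symbol. Of 234 members of the cell type and region lists tested, 1 was past 1.5-fold, which is 0.427% beside 0.472% of all genes, and this was Hopx at a ratio of 1.92. The median ratio was 0.982 over these members and 0.999 over all genes tested.

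**Figure D5:**
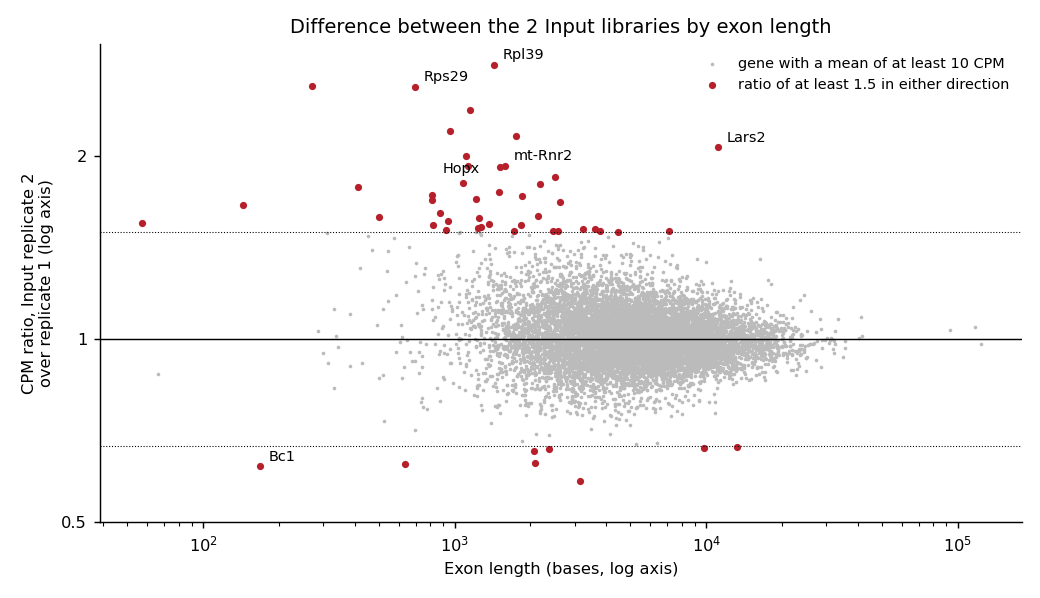
CPM ratio of Input replicate 2 over replicate 1 (log axis) against exon length in bases (log axis) for 10589 genes with a mean of at least 10 CPM, with the 50 genes at or past 1.5-fold in red and dotted lines at that ratio. The red points above the line lie mainly at short exon lengths, with Lars2 at 11089 bases as an exception.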

How the data were processed

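RNA was measured in 2 Input libraries. The values are raw counts per gene as deposited by the authors. The submitters' processing notes name the build GRCm38.p6 and the tools STAR 2.7.3a, featureCounts 2.0.1, Trim Galore 0.6.4 and cutadapt 2.10. The strand setting and the treatment of reads with several positions are not given in the sources used here. The deposited table gives Ensembl identifiers, coordinates and exon lengths. Symbols came from RefSeq genes of GRCm38.p6, matched by a shared span of at least 0.5 (34132 genes), by ends within 20 bases (50) or by containment (1750), and 546 of 555 list symbols were matched. CPM and TPM were computed from the counts, TPM being used for levels between genes and CPM for the ranking by counts, the ratios between libraries and an alternative of the list medians. No test was made, since the libraries form 1 group. TMM and median-of-ratios factors (edgeR 4.0.16 in R 4.3.3) served as alternatives. The scripts ran under Python 3.11.15 with pandas 2.3.3, and figures were drawn with matplotlib 3.10.9.

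The subject and the 42 lists were chosen with earlier results of these data known. Named were the 20 highest genes by CPM and by TPM, the first 3 and up to 4 highest members of each list with those at 0 counts, and the 8 largest ratios in each direction between the libraries. Other genes named, and the families, were chosen after their values were seen. Libraries, depth and precision are given with the results, and 0 columns of the table were left without a sample. Some genes that these rules select are not reported here.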

Additional observations from a re-analysis of the deposited data

How the results depend on the processing

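The granule cell, dentate and telencephalic medians and the share of the 100 most abundant genes with either library left out are the values of the other, with ranges of 182 to 200 TPM, 19.04 to 19.6 TPM, 19.8 to 19.9 TPM and 15.6% to 15.7%. As CPM without length scaling the medians were 240.3, 29.9 and 28.8, and over a total without mitochondrial genes and the noncoding RNA list 222, 22.5 and 23.1 TPM, where the share became 12.1%. Dentate was 16.9 TPM with a span match of at least 0.8, and telencephalic 18.6 TPM without members of other lists. Over the 7 settings the granule cell median stayed 8.03 to 11.3 times the dentate and 8.34 to 10.7 times the telencephalic median. All settings drew on the same lists, so these ranges do not cover the choice of list genes, which was not varied. The count of 50 genes past 1.5-fold was 53 with TMM and 53 with median-of-ratios scaling, 6924 of 28645 genes without a filter, 1236 of 18655 at a mean of 1 CPM, 7 at 2-fold, and 18 of 9814 with exons of at least 2000 bases, a setting chosen after seeing the data. No paired analysis was possible because the Input libraries form a single group. At low counts depth limits the ratios: 1 count is 0.0563 CPM in replicate 1.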
